A study of Mus musculus with 8 samples.

Results

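The genes described here encode the subunits of the hypoxia-inducible factors (HIF) and the enzymes that tie HIF to oxygen. They are Hif1a, Epas1, Hif3a, Arnt, Arnt2, Vhl, Egln1, Egln2, Egln3 and Hif1an, 10 genes in all, a set defined by function. Their chromatin was followed through every ATAC-seq peak within 10 kb of their gene bodies in the mouse assembly GRCm38. ATAC-seq marks open chromatin by the sites where the transposase Tn5 can insert sequencing adapters. Peaks of the 8 libraries that overlapped were merged, which gave 40784 regions, and 32 of these lay within 10 kb of a member. The cells were BV2, a mouse microglial line, kept for 16 h in normoxia (21% O2) or hypoxia (<0.1% O2), either alone (monoculture) or seeded onto GL261, a mouse glioma line (co-culture). Each of the 4 groups had 2 libraries, described by the submitters as biological replicates. Per the labels, cells were fixed while still in hypoxia, and CD45+ or GFP+ cells were then sorted, so a co-culture library may hold some glioma cells, whose share was not measured.

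HIF is a dimer of an oxygen-labile alpha subunit (Hif1a, Epas1, which encodes HIF-2 alpha, or Hif3a) and a stable beta subunit (Arnt or Arnt2). With oxygen present, the prolyl hydroxylases made by Egln1, Egln2 and Egln3 mark the alpha subunit, the protein made by Vhl binds the mark and brings a ubiquitin ligase, and the asparaginyl hydroxylase made by Hif1an blocks the contact with coactivators. Without oxygen the hydroxylases slow down, and the dimer binds short DNA elements with the core ACGTG or GCGTG. The main control acts on the alpha protein and not on its gene. Egln1 and Egln3 are themselves known HIF targets.

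The lists held 13333 and 9910 peaks in normoxic monoculture, and from 21633 to 29658 in the other 6 libraries. Read totals were not used here. An estimate of background coverage from the deposited values ran from 0.758 to 1.45 fragments per position, lowest in normoxic monoculture 1 and highest in hypoxic monoculture 1. Of 15 microglial and macrophage marker genes, 2 and 3 had a peak at the gene start (or, for the 4 with no start in the RefSeq promoter table, at either gene end) in normoxic monoculture, 10 and 10 in hypoxic monoculture, 9 and 10 in normoxic co-culture, and 11 and 9 in hypoxic co-culture. Itgam and Aif1 had no start peak in any library, and Csf1r and C1qa, whose start is not in that table, had none at either end. Of 15 glial and glioma marker genes, counted in the same way (13 with a known start), none had such a peak in the 4 monoculture libraries. In normoxic co-culture 2 and 1 of them had one, and in hypoxic co-culture 3 and 2. Those were Sox2, Nes, Slc1a3 and S100b, while the other 11, among them Gfap, Olig2, Egfr and Pdgfra, had no such peak in any library; peaks elsewhere in these genes were not counted. Throughout, a change of openness in every cell and a change in the share of cells that are open cannot be told apart in these bulk libraries.

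A gained region had a peak in every library of the first side of a comparison and in none of the second, and a lost region the reverse. A percentile is the share of peaks in a library's own list with a −log10 p no higher than that of the region's peak. Longer lists add weak peaks, so a percentile or rank set between lists of different length shows no change by itself. Equal-number lists hold the 9910 peaks with the highest −log10 p of each library; they equalise list length, leave every rank as it was, and put their percentiles on that common length. The number of fragments at a summit was solved from the authors' deposited fold and −log10 p of each peak, and the weakest peaks called had 6 to 8 fragments. These fragment numbers are not scaled for coverage unless stated. None of the counts carries a p-value: with 2 libraries against 2 an exact two-sided permutation test cannot go below 0.333, and over all 8 libraries, with labels permuted within the other factor, not below 0.0556. An absent peak is no measure of closed chromatin.

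The 250 bases before the start site are shown for the 7 genes with a called start-site region, taken from RefSeq on GRCm38.p6 and written 5′ to 3′ along the gene. Capitals mark the HIF core letters ACGTG and GCGTG, or CACGT and CACGC where they lie on the opposite strand.
Hif1a (chr12:73907617-73907866, plus strand): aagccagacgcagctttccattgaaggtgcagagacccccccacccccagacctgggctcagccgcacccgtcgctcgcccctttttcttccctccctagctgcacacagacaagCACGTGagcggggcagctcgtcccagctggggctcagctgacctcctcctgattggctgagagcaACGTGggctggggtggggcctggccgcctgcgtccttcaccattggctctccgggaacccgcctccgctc
Arnt (chr3:95434140-95434389, plus strand): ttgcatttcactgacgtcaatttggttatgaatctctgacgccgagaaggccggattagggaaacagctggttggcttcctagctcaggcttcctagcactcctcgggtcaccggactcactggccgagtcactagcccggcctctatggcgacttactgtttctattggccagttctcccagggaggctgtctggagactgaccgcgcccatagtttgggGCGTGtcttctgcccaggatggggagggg
Vhl (chr6:113623744-113623993, plus strand): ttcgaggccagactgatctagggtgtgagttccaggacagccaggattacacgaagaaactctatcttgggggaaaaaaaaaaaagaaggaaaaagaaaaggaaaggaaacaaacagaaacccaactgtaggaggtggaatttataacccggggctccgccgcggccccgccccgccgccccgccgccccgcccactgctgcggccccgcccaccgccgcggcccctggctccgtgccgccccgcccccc
Egln1 (chr8:124949255-124949504, minus strand): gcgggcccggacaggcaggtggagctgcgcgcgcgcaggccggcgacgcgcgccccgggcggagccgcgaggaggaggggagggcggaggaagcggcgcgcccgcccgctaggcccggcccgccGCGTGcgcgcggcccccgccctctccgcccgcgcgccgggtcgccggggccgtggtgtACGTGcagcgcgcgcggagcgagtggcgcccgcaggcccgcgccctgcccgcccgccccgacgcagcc
Egln2 (chr7:27166803-27167052, minus strand): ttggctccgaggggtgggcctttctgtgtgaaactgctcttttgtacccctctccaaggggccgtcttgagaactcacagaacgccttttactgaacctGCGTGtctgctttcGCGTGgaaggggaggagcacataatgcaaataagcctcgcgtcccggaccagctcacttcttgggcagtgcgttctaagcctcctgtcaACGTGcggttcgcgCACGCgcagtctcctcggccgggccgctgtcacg
Egln3 (chr12:54203875-54204124, minus strand): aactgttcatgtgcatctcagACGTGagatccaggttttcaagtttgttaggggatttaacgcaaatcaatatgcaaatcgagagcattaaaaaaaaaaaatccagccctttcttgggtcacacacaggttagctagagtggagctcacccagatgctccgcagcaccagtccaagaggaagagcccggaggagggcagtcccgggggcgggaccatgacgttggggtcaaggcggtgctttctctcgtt
Hif1an (chr19:44562604-44562853, plus strand): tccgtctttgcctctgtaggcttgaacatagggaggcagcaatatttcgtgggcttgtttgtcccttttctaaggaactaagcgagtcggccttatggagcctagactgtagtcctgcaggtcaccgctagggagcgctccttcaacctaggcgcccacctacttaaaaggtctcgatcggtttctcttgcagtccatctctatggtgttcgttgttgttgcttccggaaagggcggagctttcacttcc
Over 32851 RefSeq promoters, 38.6% hold at least 1 of these letters within the same 250 bases (16.6% hold ACGTG and 28.2% hold GCGTG, on either strand). Hif1a has ACGTG from 134 and from 70 bases before its start, and the first of these overlaps CACGT on the other strand. Egln1 has GCGTG from 126 and ACGTG from 68 bases before the start, and Egln3 has 1 ACGTG, 229 bases before it. Egln2 has 4 matches, and Arnt has 1 GCGTG, 29 bases before its start. The Vhl and Hif1an windows hold none, which says only that these letters are not in this window. The Egln1 window is 86% G or C with 51 CpG pairs, a higher G or C content than 99.9% of promoters, whose median is 52.4% with 6 CpG pairs. The matches lay inside the called start peak in all 7 libraries with one at Egln1, all 7 at Arnt and all 8 at Egln2. At Hif1a the nearer ACGTG lay inside the peak in all 8 libraries and the farther one in 7. At Egln3 the match lay inside the peak in 4 of 5.

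Every member had at least 1 region. Their median was 2 regions per gene (mean 3.2), against a median of 1 (mean 1.82) over 21883 protein-coding genes, of which 30.5% had none. Per 100 kb of gene body and flanks the members held 4.70 regions and all protein-coding genes 2.68. Arnt2 alone held 11 of the 32 member regions, and the starts of the neighbours Ppp5c, Irak2 and Ndufb8 were among the 32. Of the 32 regions, 7 lay at a start site (within 1 kb), 1 at the lower-coordinate end of Epas1, 20 elsewhere inside the genes, 3 downstream and 1 upstream. Exons and introns were not told apart. A peak in all 8 libraries was found at 3 of the 32 regions (9.38%, against 15.6% of all regions), the starts of Hif1a, Egln2 and Hif1an, and a peak in a single library at 7 (21.9%, against 26.7%).

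**Figure D1:**
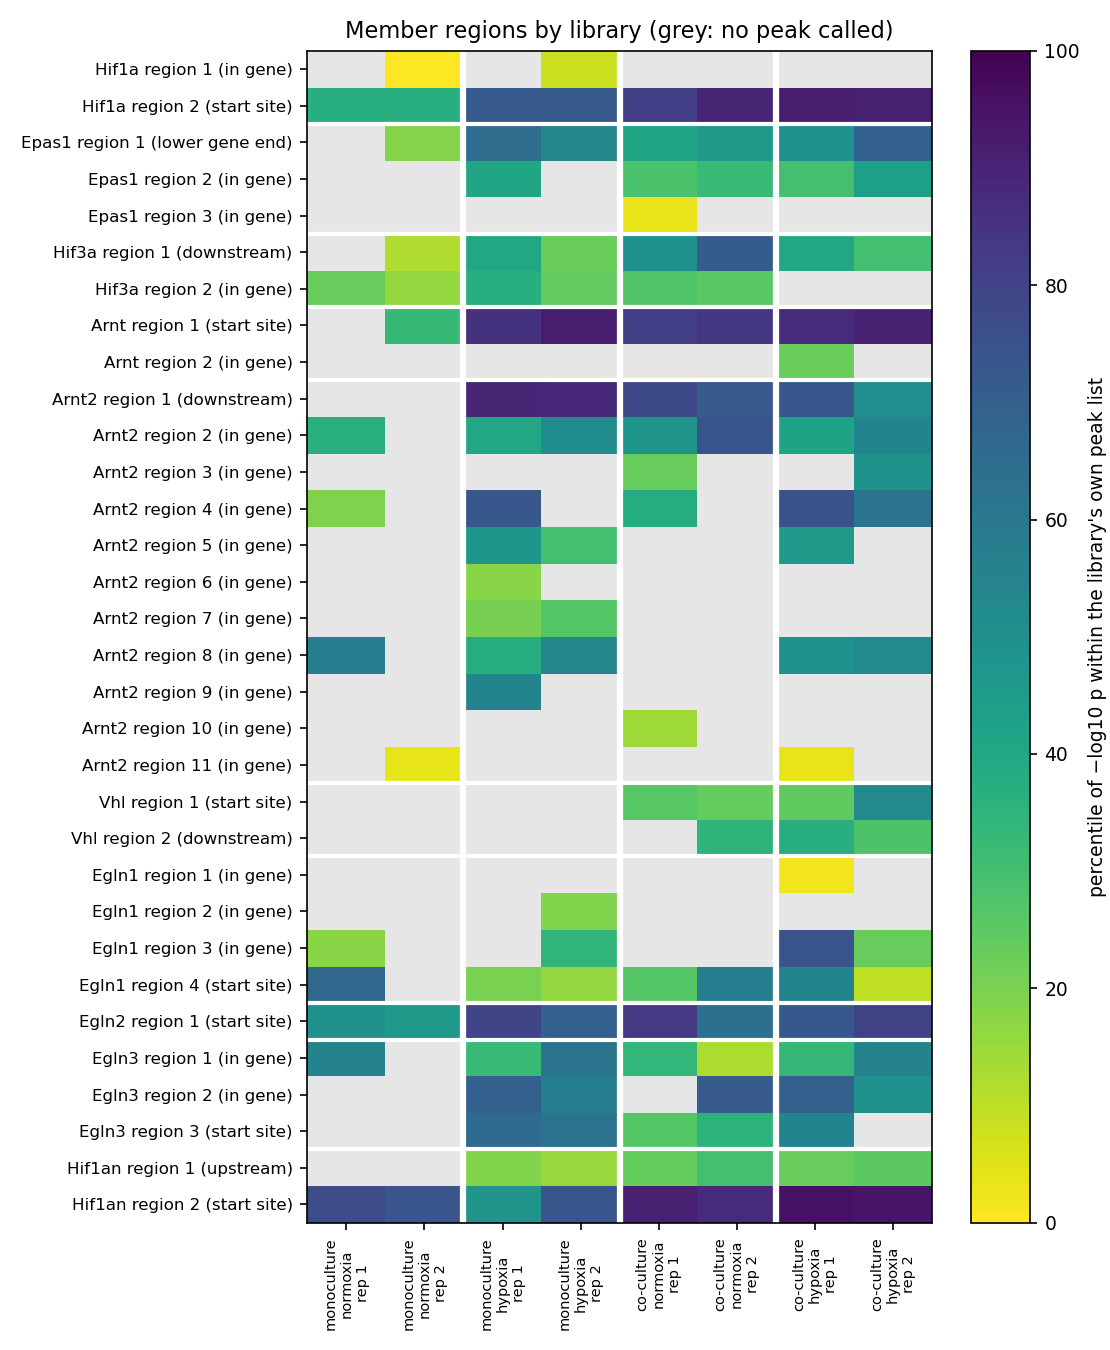
Each row is one of the 32 regions within 10 kb of a member gene, numbered along the chromosome, and each column is a library. Colour gives the percentile of the region's peak in its library's list, by −log10 p, and grey means that no peak was called; the starts of Hif1a, Egln2 and Hif1an are filled in all 8 columns, and the Vhl start is filled only in the 4 co-culture columns.

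Normoxic monoculture had a peak at 10 and 9 of the 32 regions, hypoxic monoculture at 21 and 20, normoxic co-culture at 19 and 17, and hypoxic co-culture at 23 and 19. The means were 9.5 ± 0.707, 20.5 ± 0.707, 18 ± 1.41 and 21 ± 2.83 (SD, n = 2 each). Both normoxic monoculture libraries lay below the other 6. Hypoxic co-culture overlapped normoxic co-culture and hypoxic monoculture, while the latter pair of groups did not overlap. The whole lists had the same order of groups: the share of all regions with a peak averaged 27.0% ± 5.44 in normoxic monoculture, 59.8% ± 3.55 in hypoxic monoculture, 51.6% ± 0.132 in normoxic co-culture and 61.1% ± 13.6 in hypoxic co-culture (SD, n = 2 each). In equal-number lists the members' means were 8 ± 1.41, 6.5 ± 2.12, 7 ± 2.83 and 8 ± 0 in the same order (SD, n = 2 each), and the groups overlapped.

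Among the alpha subunits, the start of Hif1a had a peak in every library. Hif1a (chromosome 12, 73901324 to 73947554, plus strand) has its RefSeq start site at 73907867, in region 2 (73907444 to 73908295). The percentile of this peak was 37.4 and 36.8 in normoxic monoculture, 71.6 and 71.8 in hypoxic monoculture, 81.5 and 89.7 in normoxic co-culture, and 91.9 and 91.3 in hypoxic co-culture. Counted from the top of each list, its rank was 8346 and 6259, 6919 and 7436, 4040 and 2258, and 2397 and 1874 in the same order. The ranks of the 2 oxygen levels overlapped in monoculture, and all 4 co-culture ranks were ahead of all 4 monoculture ranks. In equal-number lists the same ranks correspond to percentiles from 59.2 to 81.1 in co-culture and from 15.8 to 36.8 in monoculture. Estimated fragments at the summit were 14 and 18 in normoxic monoculture, 40 and 43 in hypoxic monoculture, 45 and 70 in normoxic co-culture and 82 and 81 in hypoxic co-culture. Divided by each library's coverage they were 18.5 and 17.4, 27.6 and 30.5, 42.0 and 50.6, and 57.6 and 69.2, which narrows the gap between the monoculture groups. The summit lay from 91 to 23 bases before the start in all 8 libraries. A second region at the far 5′ end of the gene body (region 1) had weak peaks in 2 libraries, with percentiles of 0.0807 in normoxic monoculture 2 and 8.06 in hypoxic monoculture 2. This region (73901303 to 73901857) spans that end, at 73901324, and was counted as inside the gene.

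Epas1, the HIF-2 alpha gene (chromosome 17, 86753864 to 86833410), had its best region at its lower-coordinate end (region 1, 86753157 to 86754018). Epas1 has no start in the RefSeq promoter table, so this end was not told apart as start or end of the gene. The region was therefore left out of the start-site counts. A peak was called in region 1 in 7 libraries. Its percentile was 18.5 in normoxic monoculture 2, 64.4 and 53.6 in hypoxic monoculture, 41.4 and 45.7 in normoxic co-culture, and 49.4 and 68.9 in hypoxic co-culture, and normoxic monoculture 1 had no peak. Apart from that library, the hypoxic values were above the normoxic ones in both cultures. The ranks from the top did not repeat this, with 8077 in normoxia against 8688 and 12226 in hypoxia in monoculture, and 12774 and 11844 against 14997 and 6722 in co-culture. Region 2, inside the gene (86769808 to 86770336), was called in the 4 co-culture libraries and in hypoxic monoculture 1, with percentiles from 28.3 to 43.6. It was gained with co-culture in normoxia and was in none of the equal-number lists. Region 3 was called in normoxic co-culture 1 alone, at a percentile of 2.74.

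Hif3a, the alpha subunit whose short forms can oppose the others (chromosome 7, 17030993 to 17062427, minus strand), had no peak at its start site in any library. Its region 2 (17058394 to 17059140) lay inside the gene, 3660 bases after the start. The percentiles there were 23.1 and 15.7 in normoxic monoculture, 37.2 and 24.0 in hypoxic monoculture, and 27.0 and 25.7 in normoxic co-culture. Hypoxic co-culture had no peak in either library. The pattern of a peak in every library but that pair was shared by 35 of all 40784 regions, 0.0858%, and by this 1 of the 32 member regions (3.12%). That pattern was singled out after the values of this region were seen, so the shares only describe it. The peaks that were called were weak, with 13 to 22 fragments at the summit, and 1 of the 8 equal-number lists held the region. Region 1, called in 7 libraries, lies 2816 bases beyond the end of Hif3a at the start of its neighbour Ppp5c.

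The beta subunit Arnt (chromosome 3, 95434367 to 95497240, plus strand), the common partner of all alpha subunits, had a wide start peak in 7 libraries (region 1, 95433457 to 95434782). Its percentile was 32.8 in normoxic monoculture 2, 85.2 and 92.0 in hypoxic monoculture, 81.4 and 83.9 in normoxic co-culture, and 87.5 and 89.9 in hypoxic co-culture. Normoxic monoculture 1 had no peak at the Arnt start, and replicate 2 had 16 fragments at the summit against 39 to 80 in the other 6 libraries. The ranks were 6655 in normoxic monoculture 2 and from 2107 to 4056 in the others, so the oxygen levels overlapped within co-culture (4056 and 3524 against 3695 and 2182). All 7 equal-number lists other than that of normoxic monoculture 1 held the peak.

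Arnt2, the beta subunit best known from neurons (chromosome 7, 84246274 to 84411741, minus strand), had no peak at its start site in any library but 11 of the 32 regions. Region 1 (84241630 to 84242329) lay 3945 bases beyond the 3′ end of the gene. Its percentile was 89.3 and 88.4 in hypoxic monoculture, 77.8 and 72.0 in normoxic co-culture, and 73.1 and 51.0 in hypoxic co-culture, and neither normoxic monoculture library had a peak. Of the member regions, this one and region 1 of Hif1an had a peak in every library except those 2, that is 2 of 32 (6.25%) against 4.97% of all regions. This pattern, too, was singled out after the values were seen. In equal-number lists the Arnt2 region was present in both hypoxic monoculture libraries (73.6 and 69.0), both of normoxic co-culture (51.3 and 38.4) and hypoxic co-culture 1 (19.6). It was thus gained with hypoxia in monoculture and with co-culture in normoxia in those lists too, and was the single member region to be so in either comparison.

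The remaining Arnt2 regions lay inside the gene. Region 2 (84250168 to 84250797) was called in 7 libraries, all but normoxic monoculture 2, at percentiles from 36.4 to 73.8. Region 8 (84332659 to 84333333) was called in all 4 hypoxic libraries (percentiles 38.1, 54.6, 49.3 and 52.7) and in normoxic monoculture 1 (57.4), and so was gained with hypoxia in co-culture only. Region 5 was called in both hypoxic monoculture libraries and in hypoxic co-culture 1, at percentiles of 46.9, 29.8 and 46.1. Region 7 was called in the hypoxic monoculture pair alone, at 20.5 and 26.5, and was in none of the equal-number lists. Region 4 had a peak in all 4 replicate 1 libraries and in hypoxic co-culture 2. The other 5 were called in 1 or 2 libraries each.

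Vhl, whose product is the substrate receptor of the ubiquitin ligase that removes hydroxylated HIF alpha (chromosome 6, 113623994 to 113631634, plus strand), was the only member with a region that separated 4 libraries from 4. Its start region (region 1, 113623681 to 113624376) was called in each of the 4 co-culture libraries and in no monoculture library. The percentiles were 26.1 and 23.6 in normoxic co-culture and 24.3 and 52.1 in hypoxic co-culture, with 15, 14, 20 and 28 fragments at the summit. This pattern was found at 1 of the 32 member regions (3.12%) and at 1.98% of all regions. At start sites it was found at 1 of 7 member regions and at 2.63% of 8444. Estimated coverage was 0.758 and 1.03 in normoxic monoculture and 1.45 and 1.41 in hypoxic monoculture, the 4 libraries without the peak, and 1.07, 1.38, 1.42 and 1.17 in the 4 with it. The peak was still called in the 4 co-culture lists, and in no other, after all lists were thinned to the lowest coverage (1.92% of all regions then had this pattern). It was weak, however, and none of the equal-number lists held it. When a peak had to cover 50% of the merged region, the count of such member regions was 0 (against 1.89% of all regions under that rule). The start peaks of the 4 glial marker genes named above, and of the microglial marker Spi1 (counted at either gene end, in normoxic co-culture 2 and hypoxic co-culture 1), were likewise found in co-culture libraries alone, and their part in this result was not tested. The other Vhl region lay at the start of the downstream neighbour Irak2 and was called in normoxic co-culture 2 and both hypoxic co-culture libraries, at percentiles from 28.0 to 37.0.

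**Figure D2:**
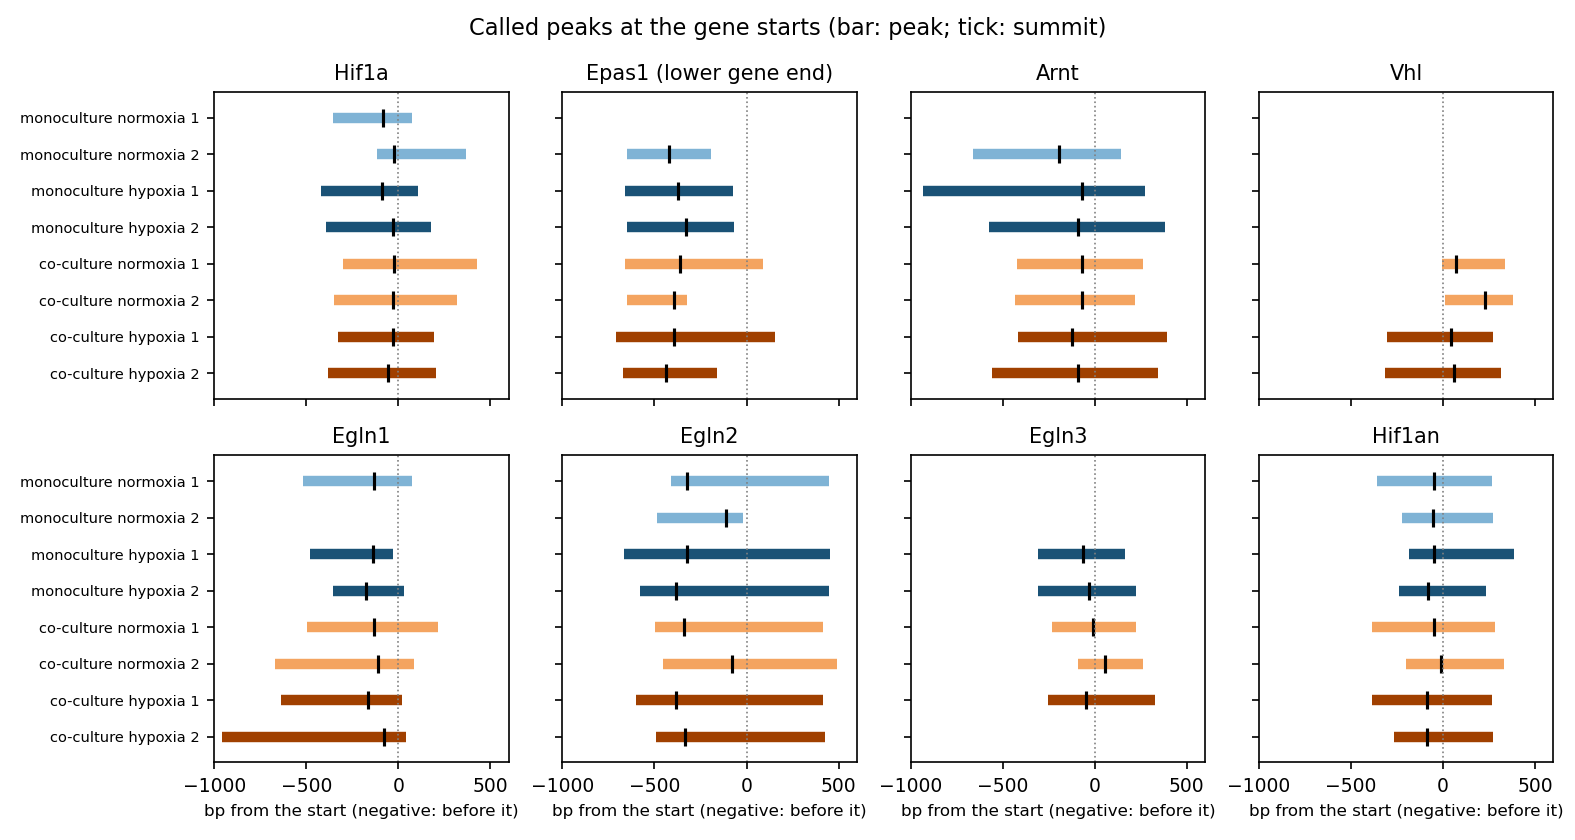
Bars show the peak called in each of the 8 libraries around the start of 7 members, and around the lower-coordinate end of Epas1, in bp from the start along the gene, with a black tick at the summit; Hif3a and Arnt2, with no start peak, are not drawn. The Vhl panel has bars in the co-culture rows alone, and the Hif1a summits lie within 91 bp of the start.

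The prolyl hydroxylase genes differed from one another. Egln2 (chromosome 7, 27158658 to 27166802, minus strand), which makes PHD1, had a start peak in all 8 libraries and in all 8 equal-number lists (region 1, 27166313 to 27167467). Its percentile was 49.5 and 46.4 in normoxic monoculture, 79.1 and 69.5 in hypoxic monoculture, 83.3 and 63.4 in normoxic co-culture, and 72.5 and 80.4 in hypoxic co-culture. Its ranks were 6735 and 5309, 5087 and 8026, 3649 and 7995, and 8146 and 4249 in that order, and the ranks of all groups overlapped.

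Egln1 (chromosome 8, 124908587 to 124949254, minus strand), which makes PHD2, the main oxygen sensor of most cells, had a weaker and more variable start peak (region 4, 124949039 to 124950212). Its percentile was 67.1 in normoxic monoculture 1 with no peak in replicate 2. It was 20.0 and 16.0 in hypoxic monoculture, 26.3 and 56.8 in normoxic co-culture, and 54.9 and 9.76 in hypoxic co-culture. Replicates of a group differed here as much as groups did. Fragments at the summit ran from 13 to 32. Region 3, inside the gene (124932426 to 124932931), was gained with hypoxia in co-culture, with percentiles of 73.8 and 23.4. It was also called in normoxic monoculture 1 (17.6) and hypoxic monoculture 2 (34.5), so in monoculture it did not follow oxygen. Regions 1 and 2 of Egln1 were called in 1 library each.

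Egln3 (chromosome 12, 54178981 to 54203874, minus strand), which makes PHD3 and is induced by HIF in many cell types, had 3 regions. The start region (region 3, 54203545 to 54204184) had no peak in normoxic monoculture. Its percentile was 65.2 and 61.9 in hypoxic monoculture, 26.4 and 35.2 in normoxic co-culture, and 55.0 in hypoxic co-culture 1, while hypoxic co-culture 2 had no peak. It was thus gained with hypoxia in monoculture and with co-culture in normoxia, and within co-culture it did not separate the oxygen levels. Fragments at the summit were 42 and 40 in hypoxic monoculture, 18 and 20 in normoxic co-culture and 39 in hypoxic co-culture 1.

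Region 2 of Egln3 (54191926 to 54192540) lay inside the gene, with its midpoint 11641 bases after the start. It had a peak in all 4 hypoxic libraries, at percentiles of 69.2 and 56.8 in monoculture and 69.3 and 49.5 in co-culture. Of the normoxic libraries, only normoxic co-culture 2 had one, at 71.1. Its summit fell 11724 bases after the start in 4 of these 5 libraries and 11648 bases after it in hypoxic co-culture 1. A peak in all 4 hypoxic libraries and 1 normoxic library was found at 2 of the 32 member regions (this one and region 8 of Arnt2, 6.25%) and at 2.83% of all regions. That pattern was singled out after the values of these regions were seen, so the shares only describe it. Region 1 of Egln3, also inside the gene, was called in all libraries but normoxic monoculture 2, at percentiles from 12.3 to 61.6.

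Hif1an (chromosome 19, 44562854 to 44576274, plus strand), which makes the asparaginyl hydroxylase FIH, had its peak at the start (region 2, 44562470 to 44563239) ahead of every other member peak in 5 libraries: both of normoxic monoculture, normoxic co-culture 1 and both of hypoxic co-culture. Its percentile was 76.9 and 73.7 in normoxic monoculture, 48.0 and 73.7 in hypoxic monoculture, 91.1 and 88.1 in normoxic co-culture, and 95.6 and 94.3 in hypoxic co-culture. The ranks were 3075 and 2608, 12665 and 6925, 1929 and 2600, and 1314 and 1225. Both hypoxic monoculture ranks were behind both normoxic monoculture ranks, and both hypoxic co-culture ranks were ahead of both normoxic co-culture ranks. All 4 co-culture ranks were ahead of all 4 monoculture ranks, by 2600 against 2608 at the closest. Fragments at the summit were 26 and 26, 25 and 37, 54 and 57, and 96 and 89, or 34.3 and 25.1, 17.3 and 26.2, 50.4 and 41.2, and 67.4 and 76.1 divided by coverage. Region 1, 7278 bases upstream, lies at the start of the neighbour Ndufb8 and was weaker, with percentiles from 15.2 to 29.7 in the 6 libraries outside normoxic monoculture.

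**Figure D3:**
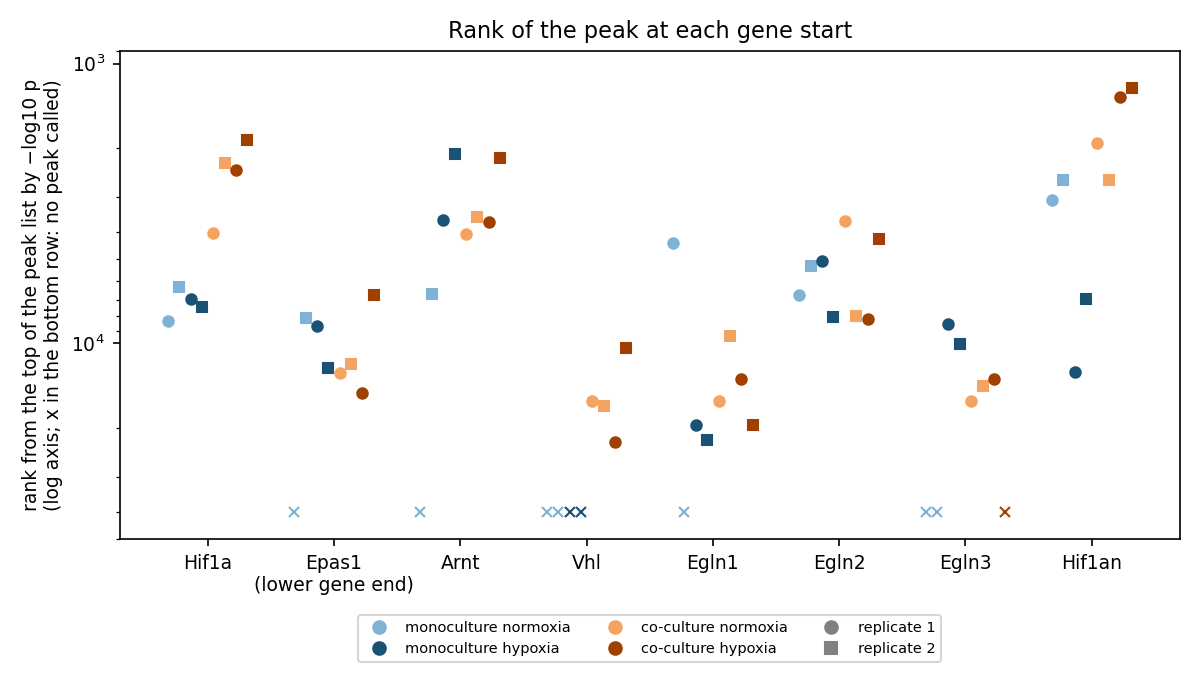
Points give the rank of the start peak, counted from the top of each library's list by −log10 p, on a log axis with rank 1000 near the top, for 7 members and the lower-coordinate end of Epas1; circles are replicate 1, squares replicate 2, and crosses mark libraries without a peak. At Hif1a and Hif1an the co-culture points lie above the monoculture points, and at Egln2 all groups overlap.

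In equal-number lists, with a peak outside the list counted below every rank, the 4 co-culture ranks were ahead of all 4 monoculture ranks at 2 of the 6 member start regions that any such list held. Those 2 were Hif1a and Hif1an. Over 6016 start-site regions the same was found at 7.88%, and the reverse at 0.382%. No member start region had all 4 hypoxic ranks ahead of all 4 normoxic ranks (2.54% of start-site regions) or behind them (8.54%). Over all 18 member regions in any equal-number list, the same 2 had co-culture ahead (against 3.71% of 19558 regions), and 0 had co-culture behind (against 2.83%), hypoxia ahead (against 3.12%) or hypoxia behind (against 4.6%). Taking each gene's start site alone, 4 and 4 of the 9 members with a RefSeq start had a peak within 1 kb in normoxic monoculture, 6 and 6 in hypoxic monoculture, 7 and 7 in normoxic co-culture, and 7 and 6 in hypoxic co-culture. Over 17491 protein-coding genes these shares were 27.6% and 22.7%, 38.0% and 38.0%, 40.8% and 43.4%, and 45.8% and 43.4%.

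The oxygen levels were compared within each culture. With hypoxia in monoculture, 6 of the 32 member regions were gained (18.8%, against 17.7% of all regions) and 0 lost (against 0.179%). The 6 were regions 1, 5 and 7 of Arnt2, the start and region 2 of Egln3, and the Ndufb8 start beside Hif1an. In equal-number lists 1 member region was gained, against 3.59% of all regions, and 0 lost, against 2.49%. With hypoxia in co-culture, 2 were gained (6.25%, against 6.09%), region 8 of Arnt2 and region 3 of Egln1, and 1 was lost (3.12%, against 2.05%), region 2 of Hif3a. In equal-number lists the single gain in co-culture was region 4 of Arnt2 (against 2.64% of all regions) and 0 were lost (against 2.78%). No member region was gained with hypoxia in both cultures (0 of 32, against 2.08%) and none was lost (against 0.0196%). In equal-number lists these counts were also 0 (against 0.52% and 0.436%). Regions gained in 1 culture were different regions from those gained in the other, and each member share lay close to that of all regions.

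Some of these counts turn on 1 library, and leaving one out loosens the rule for all regions too. Leaving out normoxic monoculture 1 gave 10 gained (31.2%, against 27.0% of all regions) and 1 lost (3.12%, against 1.15%) for hypoxia in monoculture. In the same comparison 9 were gained without normoxic monoculture 2 or hypoxic monoculture 2 (28.1% each, against 21.3% and 26%). Without hypoxic monoculture 1, 7 were gained (21.9%, against 30.2%). For hypoxia in co-culture, 6 were gained without hypoxic co-culture 2 (18.8%, against 20.6%) and 4 without normoxic co-culture 2 (12.5%, against 9.27%). In that comparison 3 were lost without normoxic co-culture 2 (9.38%, against 5.79%) and 2 without hypoxic co-culture 1 (6.25%, against 6.44%). Without normoxic co-culture 2, region 2 of Egln3 met the rule for a gain with hypoxia in both cultures. Without normoxic monoculture 1, region 8 of Arnt2 did, and without hypoxic co-culture 2, region 5 of Arnt2 did (1 of 32 each, 3.12%, against 3.13%, 2.4% and 4.45% of all regions in that order). The start regions of Hif1a, Arnt, Egln1, Egln2, Hif1an and Vhl, and the lower end of Epas1, were neither gained nor lost in any oxygen comparison made with all libraries. For hypoxia in monoculture, the Egln1 start was among those gained without normoxic monoculture 1, and the Arnt start and the lower end of Epas1 were gained without normoxic monoculture 2. For hypoxia in co-culture, the Egln3 start was lost without hypoxic co-culture 1.

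**Figure D4:**
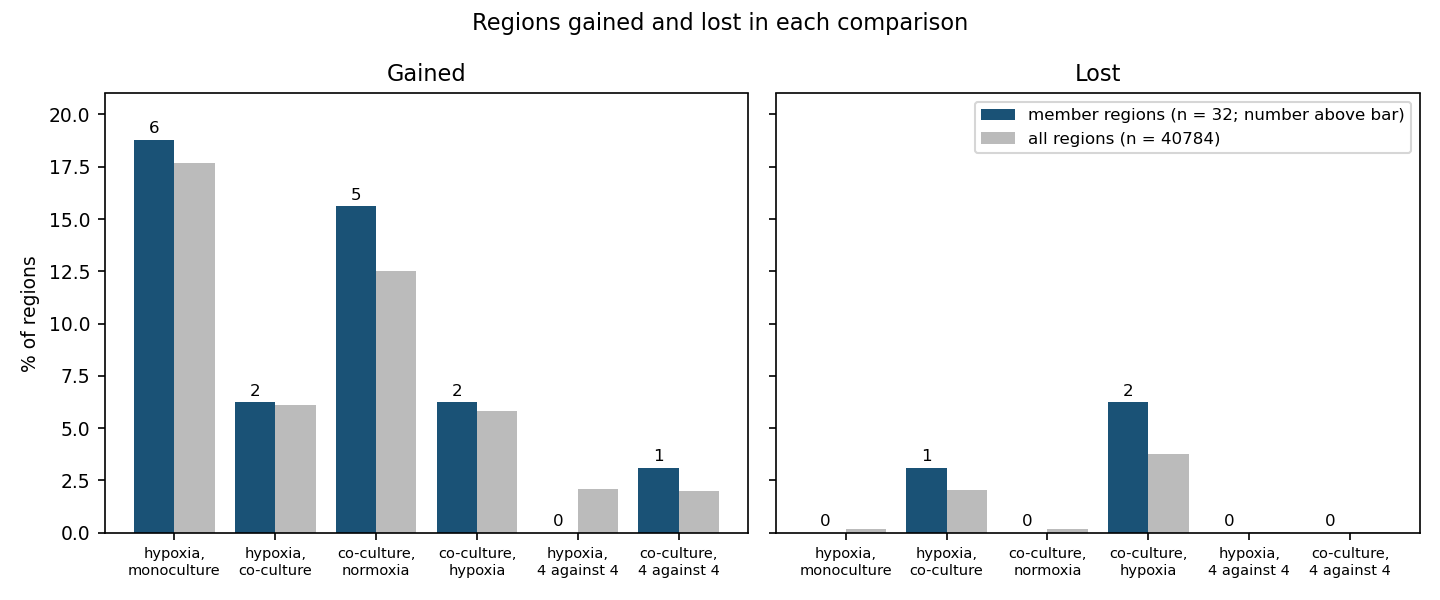
Bars give the percentage of regions gained (left) and lost (right) in each comparison, for the 32 member regions (blue, with their number above the bar) and all 40784 regions (grey); 4 against 4 compares all libraries of one level with all of the other. Member and overall shares are close in the comparisons of 2 libraries against 2, such as 18.8% and 17.7% gained with hypoxia in monoculture.

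Culture on glioma cells was compared with culture alone at each oxygen level. With co-culture in normoxia, 5 of the 32 member regions were gained (15.6%, against 12.5% of all regions): region 2 of Epas1, region 1 of Arnt2, the starts of Vhl and Egln3, and the Ndufb8 start. None was lost (against 0.181%). In equal-number lists 1 was gained (against 2.37%) and 0 lost (against 1.43%). With co-culture in hypoxia, 2 were gained (6.25%, against 5.83%), both Vhl regions, and 2 were lost (6.25%, against 3.76%), region 2 of Hif3a and region 7 of Arnt2. No member region was gained or lost in the equal-number lists of that comparison (against 3.58% and 3.4%). At both oxygen levels together (1.98% of all regions) the Vhl start was the 1 region gained, and none was lost (against 0.027%). In equal-number lists 0 were gained (against 0.493%) and 0 lost (against 0.243%). The comparisons share libraries with each other, since normoxic monoculture is the reference of both the hypoxia comparison in monoculture and the co-culture comparison in normoxia. For co-culture in normoxia, leaving out normoxic monoculture 1, normoxic monoculture 2 or normoxic co-culture 2 gave 8 gained regions (25% each, against 20.6%, 15.5% and 21.4% of all regions). Leaving out either of the first pair gave 2 lost (6.25%, against 1.39% and 2.56%). For co-culture in hypoxia, 5 were gained without hypoxic co-culture 2 (15.6%, against 16.8%) and 4 without hypoxic monoculture 1 (12.5%, against 8.24%). In the same comparison 4 were lost (12.5%) without hypoxic monoculture 1, hypoxic monoculture 2 or hypoxic co-culture 1 (against 11.4%, 8.12% and 11.4%). At both oxygen levels, 2 were gained without hypoxic monoculture 1 (Epas1 region 2 added) or normoxic co-culture 1 (the Irak2 start added), which is 6.25% against 2.7% and 2.67% of all regions.

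Of the 7 start regions alone, 3 were called in all 8 libraries, against 33.8% of 8444 start-site regions. With hypoxia in monoculture 1 was gained, that of Egln3 (against 13.6%), and 0 lost (against 0.213%). With hypoxia in co-culture 0 were gained (against 3.68%) and 0 lost (against 1.22%). With co-culture in normoxia 2 were gained, those of Vhl and Egln3 (against 18.3%), and 0 lost (against 0.0118%). With co-culture in hypoxia 1 was gained, that of Vhl (against 7.96%), and 0 lost (against 0.604%). No start region followed oxygen in both cultures (against 0.545% gained and 0.0118% lost).

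Other genes of the pathway were taken as a list of 49 genes with 135 further regions within 10 kb. They cover the VHL ligase, coactivators, factors of HIF stability, relatives of the HIF subunits and feedback genes. With hypoxia in monoculture 20 of these regions were gained (14.8%, against 17.7% of all regions) and 0 lost (against 0.179%), and with hypoxia in co-culture 6 were gained (4.44%, against 6.09%) and 4 lost (2.96%, against 2.05%). With co-culture in normoxia 20 were gained (14.8%, against 12.5%) and 0 lost (against 0.181%), and with co-culture in hypoxia 9 were gained (6.67%, against 5.83%) and 6 lost (4.44%, against 3.76%). These shares lay near those of all regions. At 1 region (0.741%, against 2.08% of all regions), inside Npas2, a clock-related relative of the HIF subunits, a peak was found in all 4 hypoxic and no normoxic library (chromosome 1, 39281601 to 39282256, percentiles from 41.0 to 69.6). At 3 regions (2.22%, against 1.98%) a peak was found in all 4 co-culture libraries and no monoculture library, the pattern of the Vhl start. They lay inside Ncoa3, a coactivator gene (chromosome 2, 165992276 to 165992891, percentiles from 10.9 to 54.1), 4709 bases outside Limd1, which encodes a scaffold that joins the prolyl hydroxylases to VHL (chromosome 9, 123473185 to 123473952, from 29.4 to 74.4), and 4708 bases outside Senp1, a SUMO protease gene (chromosome 15, 98033349 to 98034036, from 11.4 to 71.8). All 4 of these regions kept their pattern in the thinned lists, and at most 2 equal-number lists held any of them.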

How the data were processed

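Per the submitters' processing notes, Trimmomatic 0.36, HISAT2 2.1.0, Picard, SAMtools, deepTools and MACS2 2.1.1.2 were used with build mm10, which is GRCm38. Their parameters, read filters and any Tn5 shift are not given in the sources used here. Each library has its own list deposited by the authors, with replicates not pooled. Each deposited list gives a fold ratio over the library's own background, a −log10 p-value, a −log10 q-value (the lowest in any list is 2.0) and a summit offset. The deposited score is derived from the q-value and was not used.

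Peaks overlapping by 1 bp were merged, and genes and start sites came from RefSeq tables of GRCm38.p6. All 10 members matched the gene table and 9 the promoter table. Fragments n over background b were solved from fold = (n + 1)/(b + 1) and the Poisson p-value, to within 0.001, for 99.8% to 99.9% of peaks. The commonest b was taken as a library's coverage, and lists were thinned by scaling n and b to the lowest coverage. Of 52 pathway symbols, 49 matched. Named regions are each member's start region and best region, all regions separating 4 libraries from 4, and the 3 best ranked per comparison and direction. Patterns of a peak everywhere but in 1 group, or in all hypoxic libraries and 1 normoxic one, were singled out after their values were seen. Members and lists were chosen with earlier results of these data known. Alternatives were equal-number and thinned lists, a stricter q-value, a narrower window, summit windows, other overlaps and leaving out each library. Computation ran in Python 3.11.15 with pandas 2.3.3, numpy 2.4.6, scipy 1.17.1 and, for plots, matplotlib 3.10.9.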

Additional observations from a re-analysis of the deposited data

Results flagged for a closer look

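At region 1 of Arnt2, downstream of the gene, the oxygen difference had opposite signs in the 2 cultures in equal-number lists, with a peak outside the list counted as percentile 0. Hypoxia minus normoxia was 71.3 percentile points in monoculture (71.3 against 0) and −35.1 in co-culture (9.80 against 44.9), and the libraries of each pair did not overlap. The 9.80 averages 19.6 with 0 for hypoxic co-culture 2, whose peak was called at rank 10592. In co-culture the whole-list percentiles of this peak overlapped, at 77.8 and 72.0 in normoxia against 73.1 and 51.0 in hypoxia. Its fragments divided by coverage overlapped too, at 31.7 and 25.3 against 30.9 and 23.1. Its fold did not, at 9.79 and 9.44 against 9.17 and 7.43. At the start of Hif1an the signs were the other way round, −56.3 points in monoculture (15.1 against 71.3) and 10.04 in co-culture (87.2 against 77.2), again without overlap. The 15.1 there averages 30.1 with 0 for hypoxic monoculture 1, whose peak was called (rank 12665, percentile 48.0 in the whole list) but lay outside the equal-number list. The deposited fold of the Hif1an peak overlapped between oxygen levels in monoculture, at 9.08 and 7.30 in normoxia against 7.13 and 10.2 in hypoxia, and was 11.5 and 11.6 against 14.3 and 13.8 in co-culture. Neither difference between cultures was tested, and each rests on 2 libraries per group. The share of all regions with such opposite signs is not given here, so how common the pattern is remains unknown.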

How the results depend on the processing

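Counts of member regions kept close to their values when the lists were thinned to equal coverage, when regions were drawn from 250 bp on each side of the summits, and when the overlap had to reach 50% of the region or the peak, which changes nothing by construction. In equal-number lists the regions gained were 1 with hypoxia in monoculture, 1 with hypoxia in co-culture, 1 with co-culture in normoxia, 0 with co-culture in hypoxia and 0 with co-culture at both oxygen levels, and 0 were lost in each of the hypoxia comparison in co-culture and the co-culture comparison in hypoxia. The mean member regions per library were then 8 in normoxic monoculture, 6.5 in hypoxic monoculture, 7 in normoxic co-culture and 8 in hypoxic co-culture. With a −log10 q of at least 5 the normoxic monoculture mean was 7.5. Within 2 kb of the gene bodies 28 member regions were left, of which 3 were gained with co-culture in normoxia (10.7%, against 12.5% of all regions) and 1 with co-culture in hypoxia (3.57%, against 5.83%), and the means were 17.5 in hypoxic monoculture, 14.5 in normoxic co-culture and 17 in hypoxic co-culture. When the peak had to cover 50% of the region, an alternative chosen after seeing the data, 0 were gained with co-culture at both oxygen levels (against 1.89%), and the means were 7 in normoxic monoculture, 18.5 in hypoxic monoculture and 16 in normoxic co-culture.

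Leaving out 1 library loosens the rule, so counts can only stay or rise, for all regions too. At the low ends, 7 were gained with hypoxia in monoculture without hypoxic monoculture 1 (21.9%, against 30.2% of all regions). With hypoxia in co-culture 2 were gained without hypoxic co-culture 1 (6.25%, against 9.35%). With co-culture in normoxia 7 were gained without normoxic co-culture 1 (21.9%, against 21.2%). With co-culture in hypoxia 3 were gained without hypoxic monoculture 2 or hypoxic co-culture 1 (9.38%, against 8.65% and 8.85%). Regions gained ran from 7 to 10 with hypoxia in monoculture (10 without normoxic monoculture 1), from 2 to 6 with hypoxia in co-culture (4 without normoxic co-culture 2, 6 without hypoxic co-culture 2), from 7 to 8 with co-culture in normoxia (8 without normoxic monoculture 1, normoxic monoculture 2 or normoxic co-culture 2), from 3 to 5 with co-culture in hypoxia (4 without hypoxic monoculture 1, 5 without hypoxic co-culture 2), from 0 to 1 with hypoxia in both cultures (1 without normoxic monoculture 1, normoxic co-culture 2 or hypoxic co-culture 2) and from 1 to 2 with co-culture at both oxygen levels (2 without hypoxic monoculture 1 or normoxic co-culture 1). Regions lost in the first 4 of these comparisons ran from 0 to 1 (1 without normoxic monoculture 1), 1 to 3 (3 without normoxic co-culture 2, 2 without hypoxic co-culture 1), 0 to 2 (2 without normoxic monoculture 1 or normoxic monoculture 2) and 2 to 4 (4 without hypoxic monoculture 1, hypoxic monoculture 2 or hypoxic co-culture 1), and were 0 in the last pair. The means ran from 9 to 10 in normoxic monoculture, 20 to 21 in hypoxic monoculture, 17 to 19 in normoxic co-culture and 19 to 23 in hypoxic co-culture. No paired analysis was possible because the labels do not say what a shared replicate number stands for. The results are counts and ranks of called peaks that come from no test. Ranks, folds and fragment numbers of single libraries were not compared by replicate number, so an effect of a shared number was not tested. Where a count or mean moved, the cause was not tested beyond what each setting changes by construction. With lists thinned to the lowest coverage, normoxic monoculture kept 13333 and 9535 peaks and the other 6 libraries 19589 to 28255.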
